A study of Homo sapiens with 4 samples.

Results

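The genes described here encode the machinery that licenses and fires replication origins and copies DNA at the fork, without the MCM helicase subunits. The list was set by gene function, with earlier results of these data known. It holds 52 genes, and all 52 were found by symbol among the 18134 genes of the deposited table. PC9 is a human cell line established from a lung adenocarcinoma. Stable PC9 lines had been infected with lentivirus carrying either shNC, a negative-control hairpin, or shTPX2, a hairpin against TPX2, and had been selected with puromycin. In what follows shNC libraries are called controls and shTPX2 libraries knockdown libraries. TPX2 binds the microtubules of dividing cells and switches on the kinase Aurora A. Each group had 2 libraries, numbered 1 and 2, and all 4 carry the same batch label. The methods describe the depletion as partial. No source says that the libraries of a group came from separate infections or cultures, so the p-values measure the spread between these libraries, which may be technical.

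A replication origin is first bound by the origin recognition complex, and CDC6 and CDT1 then load the MCM helicase on it during G1. At the start of S phase the kinase CDC7 with DBF4, together with CDC45 and the GINS complex, turns this helicase on. Polymerase alpha with primase starts each new strand, polymerases delta and epsilon extend it, the PCNA clamp keeps them on DNA, and histones are put back behind the fork. Many of these genes are transcribed mainly at the passage from G1 to S, while others, such as several origin recognition subunits, are known to be made throughout the cycle.

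Depth was even, with 20906441 to 21972583 expected counts per library, an expected count being the estimated number of reads of a gene. All 52 genes were well covered, from 115.04 counts for the lowest gene in shNC 1 to 5042 for the highest in shTPX2 1, and each passed the filter on low counts that kept 14048 genes. The targeted gene TPX2 measured 55.01 and 111.85 TPM (a level scaled to transcript length and to library total) in shNC 1 and shNC 2, against 43.35 and 43.77 TPM in shTPX2 1 and shTPX2 2. Both knockdown libraries were below both control libraries, which on the TPM scale held for 30.3% of all genes tested. The log2 change (the log2 fold change of shTPX2 against shNC in edgeR) was −0.81 (adjusted p = 0.618 in edgeR and 0.43 in DESeq2). It was −0.24 without shNC 2 and −1.21 without shNC 1. The 2 control libraries stood apart in cell cycle genes. Of 35 mitotic genes, 34 were higher in shNC 2 than in shNC 1, with a median log2 difference of 0.95. Between the shTPX2 libraries that median was −0.08. The epithelial keratin KRT8 was at 8227.79 to 11387.52 TPM, and 5 of the 6 fibroblast markers stayed under 1 TPM in every library, with LUM at 0. Leukocyte and endothelial marker sums overlapped between groups. The endothelial marker CDH5 was itself higher, at 14.37 and 18.09 TPM in the controls and 26.71 and 30.51 TPM in the knockdown. Its log2 change was 0.94 (adjusted p = 0.439 in edgeR and 0.0184 in DESeq2). PECAM1 went the other way with overlapping groups, at 5.38 and 14.37 TPM in the controls and 4.2 and 5.92 TPM in the knockdown. VWF stayed at 0.06 to 0.17 TPM. The fibroblast marker above 1 TPM, COL1A1, was lower, at 8.64 and 11.99 TPM in the controls and 5.72 and 8.04 TPM in the knockdown. The part of these markers in the results was not tested. The lung lineage markers NKX2-1, NAPSA and SFTPB were low, at 0.04 to 1.67 TPM in the 4 libraries, so the lung origin of the line rests on its label.

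Replication genes were higher in the TPX2 knockdown group as a body. Of the 52 genes, 50 had a log2 change above 0 against 48.9% of all genes tested. The median was 0.48, a 1.39-fold difference, against −0.01 over all genes tested. The range ran from −0.15 for RFC1 to 1.08 for UHRF1. There were 3 genes at or above a log2 change of 1, 21 from 0.5 to 1, and 26 from 0 to 0.5. These genes took 0.166% and 0.206% of the counts in shNC 1 and shNC 2, compared to 0.253% and 0.228% in shTPX2 1 and shTPX2 2. In RNA from bulk cells, more cells in S phase and more of these RNAs per cell cannot be told apart.

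At the study's criteria, taken as a limma voom p up to 0.1 with no adjustment and a log2 change of 0.3 or more in size, 28 of the 52 genes were called higher and 0 lower. Over all genes tested these calls took 6.24% in the higher and 7.99% in the lower direction. The quasi-likelihood test of edgeR put 22 genes higher at an unadjusted p under 0.05 (3.13% of all genes) and 0 lower (4.9%), and all 22 were among the 28. None of the 52 genes passed an adjusted p of 0.05 in edgeR (0% of all genes), where their smallest adjusted p was 0.437. The Wald test of DESeq2, adjusted over all genes, called 3 of them higher, FAM111B (adjusted p = 0.00368), UHRF1 (0.0234) and PCNA (0.0363), against 0.235% of all genes. On the CPM scale with TMM factors (counts scaled to library size, corrected for library composition), both shTPX2 libraries lay above both shNC libraries for 37 genes (19.4% of all genes) and below them for 0 (20.2%). On the TPM scale, which has no such correction, they lay above for 31 genes (10.7%) and below for 2 (30.3%).

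**Figure D1:**
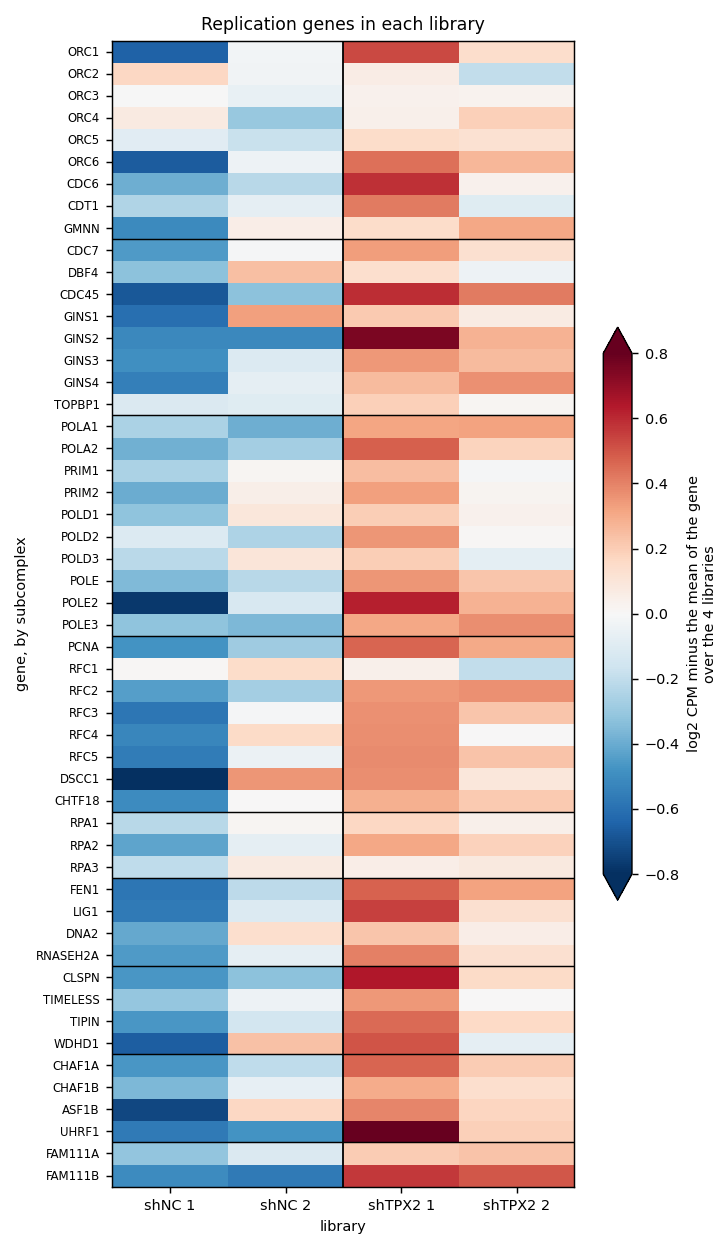
Log2 CPM of each of the 52 replication genes (rows, by subcomplex) in the 4 libraries (columns), minus the gene's mean over the 4 libraries, so that red is above and blue below that mean. The shNC 1 column is the lowest for most genes, shNC 2 lies above it for 43 of the 52, and shTPX2 1 lies above shTPX2 2 for 44.

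The size of the difference depended on which libraries were set against each other. Against shNC 1 the median log2 difference was 0.79 for shTPX2 1 and 0.58 for shTPX2 2, and 50 of the 52 genes were higher in either. Against shNC 2 it was 0.38 with 48 genes higher for shTPX2 1, and 0.24 with 39 genes higher for shTPX2 2. Within groups the median was 0.31 between the shNC libraries and −0.17 between the shTPX2 libraries, so that the smallest difference between groups was smaller than the difference between the controls. The median log2 change was 0.33 without shNC 1 and 0.41 without shTPX2 1. It was 0.72 without shNC 2 and 0.57 without shTPX2 2. Over all genes tested the median in these fits ran from −0.022 to 0.001. The part of the mitotic difference between the controls in these values was not tested.

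Across the 4 fits that each leave out 1 library, 46 genes stayed above 0 and 2 below 0, and 4 changed sign. The promoters printed below were mostly chosen by an unadjusted edgeR p under 0.05 in each of these fits. This rule gave FAM111B, UHRF1, POLE3, PCNA, CDC45, RFC2 and FEN1, from 6 of the 9 subcomplexes. Their lowest log2 changes in these fits ran from 0.62 for FEN1 to 1.03 for FAM111B. Neither this rule nor the stable signs were counted over all genes tested, so the rule serves only to choose promoters.

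FAM111B (NCBI gene 374393), a trypsin-like protease of the nucleus, measured 9.64 and 9.31 TPM in the controls and 18.28 and 18.3 TPM in the knockdown. The libraries of each group were nearly equal and the groups were far apart. The log2 change was 1.07 with a standard error of 0.18 (edgeR adjusted p = 0.437), the smallest p of the 52 genes. Its relative FAM111A, which acts on protein obstacles in front of forks, measured 28.12 and 33.99 TPM in the controls and 38.05 and 39.5 TPM in the knockdown. This is a smaller separation, with a log2 change of 0.43 with a standard error of 0.16 (edgeR adjusted p = 0.616).

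**Figure D2:**
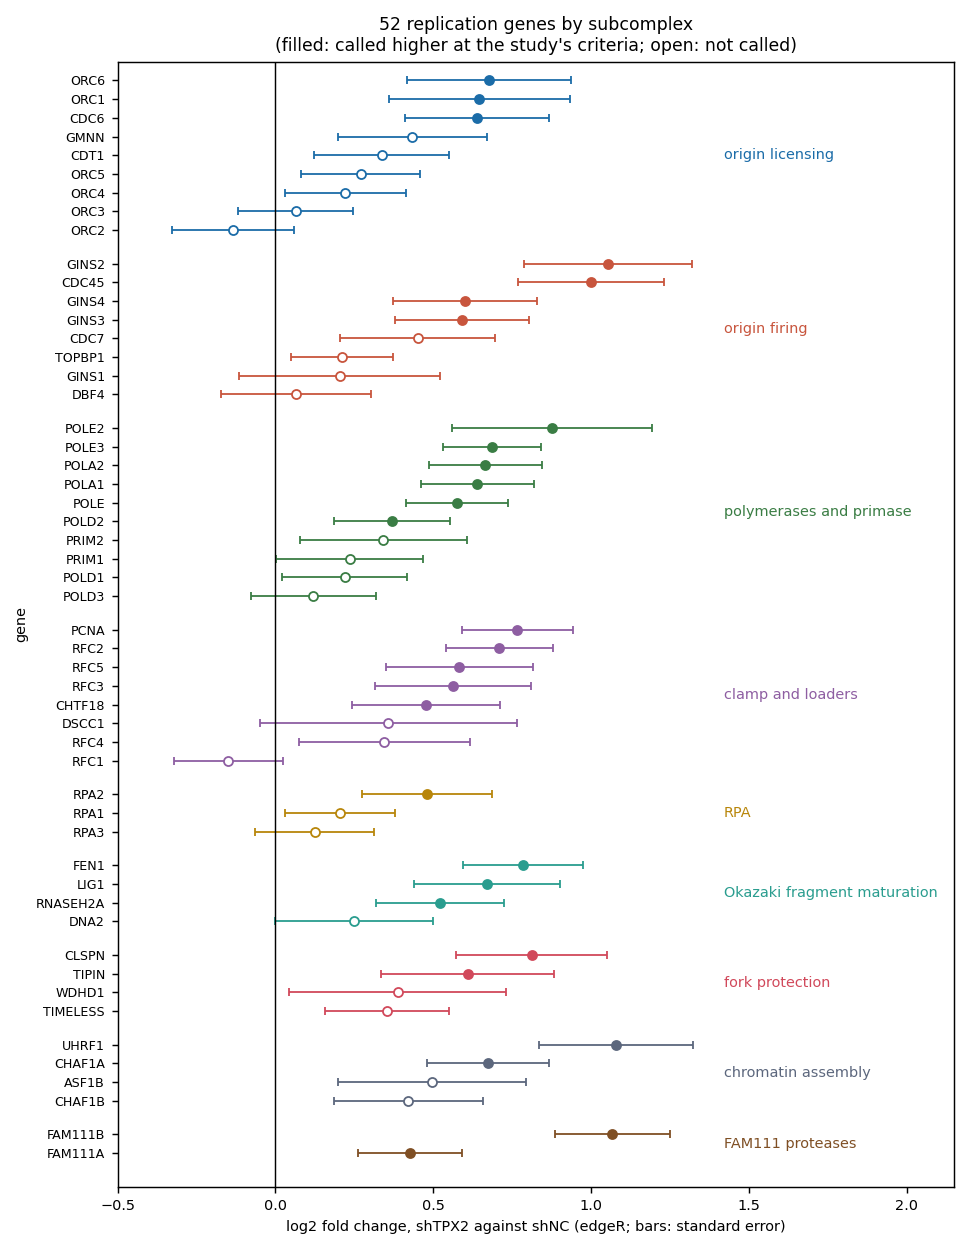
Log2 fold change of shTPX2 against shNC (horizontal axis, edgeR) for each of the 52 genes (vertical axis), with bars of 1 standard error and genes grouped by subcomplex. Filled points are the 28 genes called higher at the study's criteria, and RFC1 and ORC2 are the only points to the left of 0.

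Of the origin licensing genes 3 of 9 were called higher, with a median log2 change of 0.34. Of the origin recognition complex, ORC1 measured 7.08 and 11.32 TPM in the controls and 14.67 and 11.52 TPM in the knockdown. ORC6 measured 17.62 and 28.63 TPM in the controls and 34.5 and 32.4 TPM in the knockdown. Both were called higher, with log2 changes of 0.65 for ORC1 and 0.68 for ORC6, although shNC 2 came close to the knockdown libraries in either. Without shNC 1 these values were 0.38 and 0.41, and without shNC 2 they were 0.99 and 1.02. The other 4 subunits, ORC2 to ORC5, were not called, with log2 changes from −0.14 to 0.27. ORC2 measured 21.39 and 18.72 TPM in the controls against 18.56 and 15.84 TPM in the knockdown. ORC3 was flat, at 18.86 and 18.87 TPM in the controls and 18.74 and 18.95 TPM in the knockdown.

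CDC6, the ATPase that brings the helicase to the origin, measured 18.42 and 21.4 TPM in the controls and 33.18 and 23.28 TPM in the knockdown. It was called higher with a log2 change of 0.64 (standard error 0.23), which was 0.34 without shTPX2 1. CDT1, its partner in loading, measured 45.82 and 52.99 TPM in the controls and 66.24 and 47.77 TPM in the knockdown. These groups overlapped, and CDT1 was not called (log2 change 0.34, 0.06 without shTPX2 1). Geminin, encoded by GMNN, binds CDT1 and blocks a further round of licensing. It measured 33.49 and 49.3 TPM in the controls and 49.75 and 56.24 TPM in the knockdown, so that shNC 2 and shTPX2 1 nearly coincided, and it was not called (log2 change 0.43).

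Origin firing genes had 4 of 8 called higher and a median of 0.52. CDC45, which completes the active helicase together with GINS, measured 10.89 and 14.25 TPM in the controls and 24.01 and 21.95 TPM in the knockdown. Its mean went from 12.6 ± 2.38 to 23.0 ± 1.46 TPM (SD, n = 2 each), a log2 change of 1.0 with a standard error of 0.23 (edgeR adjusted p = 0.48). GINS2 measured 14.04 and 14.41 TPM in the controls and 31.12 and 22.98 TPM in the knockdown. The shNC libraries of GINS2 were almost equal, and the log2 change was 1.05 with a standard error of 0.27 (edgeR adjusted p = 0.575).

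GINS2 is 1 of the 4 subunits of the GINS complex. GINS3 and GINS4 were also called higher, with log2 changes of 0.59 and 0.6, which were 0.42 and 0.4 without shNC 1. GINS1 measured 9.41 and 18.56 TPM in the controls against 14.87 and 13.91 TPM in the knockdown, inside the range of the controls, and its log2 change of 0.2 was −0.18 without shNC 1 and 0.73 without shNC 2. Without shNC 2 GINS3 was at 0.79 and GINS4 at 0.85. The difference between GINS1 and the other subunits was not tested. Of the firing kinase, the catalytic subunit CDC7 was not called (log2 change 0.45). Its activator DBF4 measured 12.54 and 19.22 TPM in the controls and 15.85 and 14.5 TPM in the knockdown, again inside the controls (log2 change 0.07, and −0.01 with scaling to library size only). TOPBP1, a scaffold for helicase activation, had a log2 change of 0.21 and was not called.

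Polymerase and primase genes had 6 of 10 called higher and a median of 0.47. Polymerase epsilon extends the leading strand, and its 3 genes among the 52 were all called, with log2 changes from 0.57 to 0.88. Its other subunit, POLE4, counted among the further replication genes and named here after its values were seen, was called at 0.39. POLE3, a small histone-fold subunit, measured 51.48 and 51.71 TPM in the controls and 73.52 and 79.03 TPM in the knockdown, with a log2 change of 0.69 with a standard error of 0.16 (edgeR adjusted p = 0.47). POLE, the catalytic subunit, measured 11.05 and 13.22 TPM in the controls and 17.17 and 16.72 TPM in the knockdown. In both genes the 2 knockdown libraries were close to each other and clear of the controls.

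Polymerase alpha, which lays the first stretch of DNA after the RNA primer, was called for both genes measured. POLA1 measured 8.32 and 7.76 TPM in the controls and 11.34 and 11.69 TPM in the knockdown, and POLA2 28.72 and 32.83 TPM against 49.0 and 38.42 TPM. Their log2 changes were 0.64 and 0.67 (standard error 0.18 each, adjusted p = 0.579 each from edgeR). The primase subunits PRIM1 and PRIM2 were not called, with log2 changes of 0.23 and 0.34 and overlapping groups.

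Polymerase delta, which extends the lagging strand, had log2 changes from 0.12 to 0.37 for its 3 genes among the 52. POLD2 alone was called, with 104.58 and 97.52 TPM in shNC, 132.21 and 107.84 TPM in shTPX2 and a log2 change of 0.37 that was 0.2 without shTPX2 1. The catalytic subunit POLD1 had 25.79 and 35.33 TPM in the controls and 34.01 and 31.15 TPM in the knockdown. POLD3 had 21.63 and 26.49 TPM in the controls and 27.36 and 23.34 TPM in the knockdown. Both overlapped between groups, and the log2 change of POLD3, 0.12, was −0.02 without shNC 1. POLD4, the small subunit, counted among the further replication genes and also named after its values were seen, had a log2 change of −0.21 and was not called. A difference between polymerases delta and epsilon was not tested.

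PCNA, the sliding clamp that holds the polymerases on DNA, was the most abundant of the 52 genes. It measured 199.23 and 233.77 TPM in the controls and 352.17 and 322.9 TPM in the knockdown. The mean went from 216.5 ± 24.4 to 337.5 ± 20.7 TPM (SD, n = 2 each), a log2 change of 0.77 with a standard error of 0.18 (edgeR adjusted p = 0.47). The gap between the groups was larger than the gap within either of them.

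The clamp is loaded by replication factor C, which has 1 large and 4 small subunits. RFC2, a small subunit, measured 34.73 and 39.6 TPM in the controls and 54.78 and 58.27 TPM in the knockdown, a log2 change of 0.71 with a standard error of 0.17 (edgeR adjusted p = 0.521). RFC3 and RFC5 were also called, with log2 changes of 0.56 and 0.58, which were 0.32 and 0.36 without shNC 1 and 0.87 and 0.85 without shNC 2. RFC4 was not called, since shNC 2 at 54.52 TPM lay between shTPX2 2 at 45.14 TPM and shTPX2 1 at 56.65 TPM. The large subunit RFC1 stood the other way, at 49.19 and 55.71 TPM in the controls and 46.25 and 40.42 TPM in the knockdown. Its log2 change of −0.15 (standard error 0.17) did not pass either test.

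Other clamp loaders swap RFC1 for another large subunit. CHTF18, the large subunit of the loader that acts in sister chromatid cohesion, was called higher with a log2 change of 0.48, which was 0.26 without shNC 1 and 0.74 without shNC 2. Its partner DSCC1 measured 4.91 and 11.35 TPM in the controls and 10.52 and 8.71 TPM in the knockdown. Here shNC 2 was the highest library and shNC 1 the lowest, and the log2 change of 0.36 ran from −0.1 without shNC 1 to 1.05 without shNC 2.

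RPA coats the single-stranded DNA of the fork, and 1 of its 3 genes was called. RPA2 measured 21.33 and 28.54 TPM in the controls and 32.48 and 31.06 TPM in the knockdown (log2 change 0.48). RPA1 measured 61.5 and 74.79 TPM in the controls and 74.25 and 70.31 TPM in the knockdown, and RPA3 25.23 and 31.33 TPM against 27.66 and 28.87 TPM. Both overlapped on the TPM scale, and their log2 changes were 0.2 and 0.12.

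Of the 4 genes that finish Okazaki fragments, 3 were called. FEN1, the nuclease that trims the flap at the 5′ end of a fragment, measured 28.58 and 37.95 TPM in the controls and 54.34 and 50.54 TPM in the knockdown. The log2 change was 0.78 with a standard error of 0.19 (edgeR adjusted p = 0.565). LIG1, the ligase that seals the nick, measured 21.01 and 30.03 TPM in the controls and 42.26 and 31.33 TPM in the knockdown, where shNC 2 and shTPX2 2 were close (log2 change 0.67). RNASEH2A, the catalytic subunit of the ribonuclease that removes RNA from DNA, measured 63.19 and 84.44 TPM in the controls and 104.95 and 89.29 TPM in the knockdown (log2 change 0.52). DNA2, a nuclease for long flaps, had a log2 change of 0.25 and was not called.

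**Figure D3:**
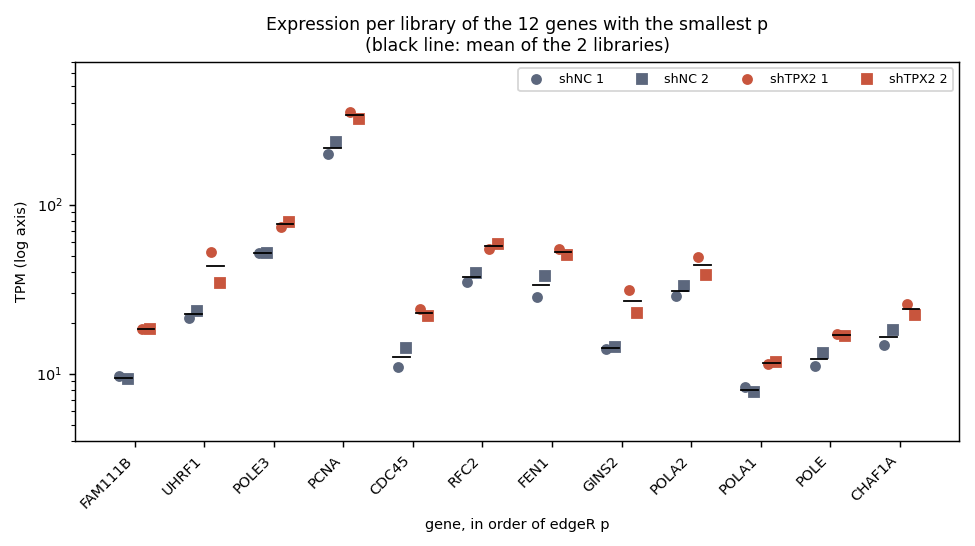
TPM on a log axis of the 12 replication genes with the smallest edgeR p, in order of p, with circles for library 1, squares for library 2, grey for shNC, red for shTPX2 and a black line at the mean of the 2 libraries. In each of the 12 genes both shTPX2 libraries lie above both shNC libraries, and UHRF1, GINS2 and POLA2 show the widest gaps between the shTPX2 libraries.

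In the fork protection group 2 of 4 genes were called. Claspin (CLSPN), the adaptor that passes the ATR signal to CHK1, measured 4.93 and 5.4 TPM in the controls and 9.53 and 6.92 TPM in the knockdown, with a log2 change of 0.81 (standard error 0.24). TIPIN, which pairs with TIMELESS to hold the fork together, measured 6.44 and 7.11 TPM in the controls and 13.09 and 10.18 TPM in the knockdown, with a log2 change of 0.61 on the count scale. TIMELESS itself measured 16.57 and 20.49 TPM in the controls and 23.95 and 19.41 TPM in the knockdown and was not called (log2 change 0.35). WDHD1, which links polymerase alpha to the helicase, was not called either, and its log2 change of 0.39 was 0.02 without shNC 1 and 0.89 without shNC 2.

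In the chromatin assembly group 2 of 4 genes were called. UHRF1, which reads hemimethylated DNA behind the fork and recruits the maintenance methyltransferase, measured 21.34 and 23.54 TPM in the controls and 52.77 and 34.29 TPM in the knockdown. Its mean went from 22.4 ± 1.56 to 43.5 ± 13.1 TPM (SD, n = 2 each), a log2 change of 1.08 with a standard error of 0.24 (edgeR adjusted p = 0.47). The knockdown libraries differed from each other but both were well above the controls, and the value was 0.72 without shTPX2 1. The large subunit of the histone chaperone CAF-1, CHAF1A, measured 14.7 and 18.08 TPM in the controls and 25.81 and 22.1 TPM in the knockdown (log2 change 0.67). CHAF1B, its middle subunit, measured 9.47 and 12.03 TPM in the controls and 13.71 and 12.65 TPM in the knockdown (log2 change 0.42). ASF1B, which hands histones to CAF-1, measured 46.08 and 88.05 TPM in the controls and 91.77 and 80.97 TPM in the knockdown. For ASF1B and CHAF1B shNC 2 lay next to or within the knockdown libraries, and neither was called.

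Promoter sequences are shown because many of these genes moved together. A RefSeq promoter (GRCh38.p14, first start listed for each gene) was available for 45 of the 52 genes (not GINS4, POLD3, DSCC1, RPA2, RPA3, DNA2 or FAM111B), and the 250 bases upstream of the start were searched on both strands. The stretches printed are the 120 bases before the start, 5′ to 3′ on the strand of the gene, for 6 of the 7 genes that kept an unadjusted p under 0.05 without each library, and for ORC2 and RFC1, the 2 genes with a log2 change below 0. Capitals mark the CCAAT box, written CCAAT or on the opposite strand ATTGG, and the E2F core motif. The E2F core was searched in 4 forms. The form TTCCCGC appears on the opposite strand as GCGGGAA. The other forms searched were TTCGCGC and also, with G as the third base, TTGCCGC and, with a pair of G bases there, TTGGCGC.
PCNA, chr20:5126623-5126742, minus strand: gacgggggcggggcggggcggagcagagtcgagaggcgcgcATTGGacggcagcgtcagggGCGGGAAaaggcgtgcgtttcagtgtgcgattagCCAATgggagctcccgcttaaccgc
UHRF1, chr19:4909381-4909500, plus strand: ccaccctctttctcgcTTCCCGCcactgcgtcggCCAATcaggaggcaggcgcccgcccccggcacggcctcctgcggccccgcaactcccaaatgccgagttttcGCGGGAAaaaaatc
CDC45, chr22:19479800-19479919, plus strand: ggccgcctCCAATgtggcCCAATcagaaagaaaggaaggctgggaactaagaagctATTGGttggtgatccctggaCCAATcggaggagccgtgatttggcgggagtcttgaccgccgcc
FEN1, chr11:61792791-61792910, plus strand: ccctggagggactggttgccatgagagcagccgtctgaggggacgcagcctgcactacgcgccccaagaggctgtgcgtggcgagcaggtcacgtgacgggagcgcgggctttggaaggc
POLE3, chr9:113410750-113410869, minus strand: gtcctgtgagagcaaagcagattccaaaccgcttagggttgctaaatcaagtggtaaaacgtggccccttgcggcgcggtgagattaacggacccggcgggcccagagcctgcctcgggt
RFC2, chr7:74254400-74254519, minus strand: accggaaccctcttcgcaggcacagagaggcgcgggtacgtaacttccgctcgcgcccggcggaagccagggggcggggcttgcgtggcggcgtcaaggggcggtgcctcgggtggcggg
ORC2, chr2:200963661-200963780, minus strand: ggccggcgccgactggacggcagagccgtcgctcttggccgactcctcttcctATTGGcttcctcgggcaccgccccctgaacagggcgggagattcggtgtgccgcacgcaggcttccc
RFC1, chr4:39366363-39366482, minus strand: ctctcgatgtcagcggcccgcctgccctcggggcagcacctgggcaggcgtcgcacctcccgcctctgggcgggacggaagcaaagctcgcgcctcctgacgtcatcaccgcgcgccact

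The E2F core motif, the letters bound by the E2F factors that drive transcription at the start of S phase, was present in 17 of the 45 promoters (37.8%), against 11.0% of all 27305 promoters and 17.1% of those of the genes tested. In the stretches shown it occurs in UHRF1 on both sides of the CCAAT box and in PCNA between its CCAAT boxes, and in none of the other 6. The CCAAT box was found in 24 of the 45 (53.3%), against 33.0% of all promoters, 34.5% of those of the genes tested and 22 of 29 (75.9%) for the mitotic genes. The E2F core was in 7 of those 29 (24.1%). Members with the E2F core had a median log2 change of 0.57 and those without it 0.46. Over all genes tested the medians were 0.03 with the motif and −0.01 without it. Of the 17 members with it 10 were called higher (58.8%), and of the 28 without it 15 (53.6%). Over all genes tested these shares were 8.4% and 6.07%. Members with the CCAAT box had a median log2 change of 0.58 and those without it 0.43. Of the 24 members with this box 16 were called higher (66.7%), and of the 21 without it 9 (42.9%). Over all genes tested these shares were 7.1% and 6.14%. Neither split was tested. A motif of the late cell cycle, the cell cycle homology region (TTTGAA or TTCGAA), was in 1 of the 45 promoters (2.22%), that of ASF1B. It was in 14.6% of all promoters, 9.76% of those of the genes tested and 15 of 29 (51.7%) for the mitotic genes. These are matches of letters in a fixed window and not sites of binding, and no match says only that these letters are not in it.

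Other genes of replication and of the cell cycle were taken from lists written from general knowledge, also with earlier results of these data known. All 6 MCM subunits were called higher, with a median log2 change of 0.81 and the smallest p at MCM5 (log2 change 1.03). Of 32 further replication genes 10 were called higher and 0 lower, with a median of 0.22. TONSL (0.7), which binds newly placed histones, and RNASEH2C (0.76), a subunit of the same ribonuclease as RNASEH2A, had their smallest p. Of 14 genes of deoxynucleotide synthesis 7 were called higher and 1 lower, with a median of 0.32, and NME1 (0.81) and DTYMK (0.59) had the smallest p. Of 13 E2F and RB family genes 2 were called higher and 1 lower, with a median of 0.1. Those higher were E2F1 (0.67), an activator of the G1 to S genes, and TFDP1 (0.46), a partner of the E2F factors on DNA that was named after its values were seen. E2F5 (−0.62), counted among the repressors, was lower.

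The mitotic genes did not follow the replication genes. Of 35 mitotic genes 2 were called higher and 0 lower, with a median log2 change of 0.02. Their libraries overlapped between groups for 32 genes, with shNC 1 at the low end and shNC 2 at the high end. Against shNC 1 all 35 were higher in either knockdown library, with medians of 0.64 and 0.6. Against shNC 2 the same list had 31 of 35 lower in either, with medians of −0.4 and −0.43. In the same 4 comparisons the replication genes had medians from 0.24 to 0.79, with 39 to 50 of the 52 genes higher. No test of the difference between the lists was run, and the lists share the same 4 libraries.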

How the data were processed

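RNA-seq of polyadenylated RNA from 4 PC9 libraries was analysed. According to the study's methods, SOAPnuke removed poor reads, HISAT2/Bowtie2 placed the rest and RSEM or StringTie, which of them is not stated, gave the values per gene. The submitters' processing notes name HISAT2, featureCounts, DESeq2 and GRCh38, and the annotation and strand setting are not given in the sources used here. For each library the authors deposited expected counts (estimated reads per gene), not normalized for depth and not whole for 42.2% to 44.6% of genes. They also deposited TPM and FPKM values, scaled to transcript length and depth, of which FPKM was not used. The table further holds average columns made by the authors, which entered no test.

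Expected counts were rounded to whole numbers, genes were kept by filterByExpr, and TMM factors (0.959 to 1.05) were applied. All genes kept were fitted at once in R 4.3.3, by edgeR 4.0.16 (quasi-likelihood) and by limma 3.58.1 (voom), and p-values were adjusted by Benjamini-Hochberg over all of them. A standard error is the log2 change divided by the square root of its F value. DESeq2 1.42.0 was an alternative. The common dispersion of edgeR was 0.0485. A permutation test of a single gene was not used, since 4 libraries fall into pairs of groups in no more than 3 ways. The scripts were tested on simulated counts. The members, gene lists and motifs were chosen with earlier results of these data known, so their counts and medians are descriptions, and no set test was run. Named were TPX2, PCNA, ORC1, CDC6, CDT1, GMNN, UHRF1, both FAM111 genes, up to 3 genes with the smallest p per subcomplex, genes below 0 and overlapping genes near 0. The other members described were added after their values were seen. Of the other lists, the 2 genes with the smallest p may be named.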

Additional observations from a re-analysis of the deposited data

Results flagged for a closer look

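The average columns that the authors placed beside the library values were not used in the comparisons above. By the authors' average TPM, 45 of the 52 replication genes were higher in shTPX2 than in the control and 7 were lower, with a median log2 ratio of 0.25, against 40.3% of all genes tested higher and a median of −0.08. PCNA had an authors' average of 299.6 TPM in the control and 386.5 TPM in shTPX2, and FAM111B 15.7 and 27.1 TPM. TPX2 itself had authors' averages of 138.5 and 64.5 TPM. These averages are not the means of the 2 libraries of a group. They equal that mean, within 0.006 TPM, for 5.24% of the genes in the control and 4.97% in shTPX2. Multiplied by 3, the control averages were whole hundredths of a TPM for 100% of the genes (35.1% when multiplied by 2), and the shTPX2 averages were so when multiplied by 4 (51.5% when multiplied by 2), within 0.01 of a hundredth. This is the pattern of a mean over 3 control and 4 shTPX2 values. Whether these values include the 2 libraries of each group is not known, so the averages may count the same libraries again. They carry no spread and were not tested.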

How the results depend on the processing

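The count of genes called higher at the study's criteria was 25 to 31 under the other normalizations, filters and tests, and 0 genes were called lower under any. Leaving out 1 library moved it between 13 (without shTPX2 1) and 39 (without shNC 2), and the edgeR count at an unadjusted p under 0.05 between 7 and 34. The median log2 change ran from 0.33 (without shNC 1) to 0.72 (without shNC 2). In these fits without 1 library, the lone library is assumed to vary like the other group. In the edgeR fits of all 4 libraries, the count at an adjusted p under 0.05 stayed at 0, and was 0 over all genes too. With DESeq2 that count was 3, against 111 over all genes. The sign changed for ORC3 (−0.005) and DBF4 (−0.014) with library size only, which moved the median of all genes to −0.08 and the calls over all genes from 876 higher and 1122 lower to 578 and 1445. Without 1 library the log2 change of DBF4 ran from −0.18 to 0.37, of GINS1 from −0.18 to 0.73, of POLD3 from −0.019 to 0.28 and of DSCC1 from −0.103 to 1.05. With the replicate block the calls were 29 at the study's criteria (7.72% of all genes) and 22 in edgeR (4.15%). The median was 0.49, and the block changed none of these counts by more than 1.5 times. No source pairs the libraries of the same number, and the correlation of their deviations was 0.173 over genes between the 2 pairs. The log2 CPM values of shNC 1 and shTPX2 1 were the most alike (r = 0.980). This was above the 2 shNC libraries (0.969) and the 2 shTPX2 libraries (0.975), while shNC 2 and shTPX2 2 were the least alike (0.962). What lies behind this was not tested. The effect of lower depth was not tested.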
